A study of Mus musculus with 6 samples.

Results

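The genes described here encode the proteins of the cytosolic ribosome, the particle that translates nuclear messenger RNA. They were chosen by name from the deposited gene table: every symbol that starts with Rpl or Rps and a digit, together with Rpsa, Rplp0, Rplp1 and Rplp2. Symbols that mark pseudogenes with -ps and the ribosomal S6 kinases were left out. The rule found 89 genes of 23067. Of these, 46 encode proteins of the large (60S) subunit and 31 proteins of the small (40S) subunit, 5 are paralogues of such genes, and 6 are retrocopies, that is, intron-poor copies made from a reverse-transcribed messenger. The remaining gene, Rps19bp1, shares the prefix but encodes a regulator of the deacetylase Sirt1 that binds Rps19. Fau and Rack1, small-subunit genes whose names fall outside the rule, are given beside the others. Rpl10l and Rpl39l, paralogues of Rpl10 and Rpl39, fit the rule by name but had no row in the table.

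Gene expression was measured by bulk RNA sequencing of dorsal striatum at postnatal day 21 in 3 samples from mice homozygous for Lrrk2 G2019S, a knock-in of the kinase change best known from familial Parkinson's disease, and in 3 from Lrrk2 wild-type mice, with 1 library per sample. No other allele, drug or treatment is named in the labels. The labels do not say that each sample came from its own animal, and p-values then cover only the spread among these samples, part of which may be technical. The allele is carried in every cell, and a single changed residue leaves the transcript in place, so the level of Lrrk2 (11.9 ± 0.579 FPKM in knock-in and 11.3 ± 0.625 FPKM in wild type, SD, n = 3 each) does not check the labels.

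Values are FPKM, a level per length of transcript and per number of fragments, so that levels may be compared between genes. Depth is unknown, since read counts are not in the table. All 6 libraries held the markers of striatal projection neurons. The dopamine receptor Drd1 stood at 80.3 ± 10.7 FPKM in knock-in and 77.7 ± 3.08 FPKM in wild type, and Ppp1r1b, the signalling protein DARPP-32, at 768 ± 15.8 FPKM in knock-in and 796 ± 37.4 FPKM in wild type. The titles give males, yet Xist, the RNA of the inactive X chromosome that is normally expressed in females, was at 30.8, 27.2 and 39.3 FPKM in knock-in libraries and at 31.4, 33.0 and 31.6 FPKM in wild-type libraries. The Y-linked genes Ddx3y, Eif2s3y, Kdm5d and Uty were looked for and had no row in the table. The sex of the samples was not tested further. In other genes some libraries stood apart. Slc17a7, which loads glutamate into vesicles in cortical neurons, had 29.9, 25.2 and 3.41 FPKM in knock-in replicates 1 to 3 and 10.95, 3.55 and 2.73 FPKM in wild type replicates 1 to 3. Ttr, which marks the choroid plexus, reached 374 FPKM in wild type replicate 2 and was at most 16.2 FPKM in the others. Xist, Slc17a7 and Ttr were picked with their values in view, and the results below are therefore given per library.

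Each cytosolic ribosome carries 1 copy of most of these proteins, so cells make them in matched amounts. Their messengers begin with a 5′ terminal oligopyrimidine tract, an unbroken run of C and T bases after a C at the first position. The tract places their translation under the control of mTORC1, the kinase complex that senses nutrients and growth factors, through Larp1. In neurons ribosomes are made in the soma and occur in dendrites and axons, and S15, the product of Rps15, has been described as a substrate of LRRK2 in human neurons and flies.

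The sequence around the start of transcription is shown for 6 members because this tract is the best-known feature of such messengers. They were picked from the 14 windows that held CTTTC, among those with a run of 10 bases or more. They thus show long runs and not the usual case. Some windows with longer runs than those of Rpl18 and Rplp2, such as Rpl7a with 17 bases, are not printed. Sequences are from RefSeq on GRCm38.p6 and run 5′ to 3′ on the gene's strand from 10 bases before to 20 bases from the annotated start. Capitals mark the longest unbroken run of C and T that holds CTTTC, which in Rpl18 begins at the base after the annotated start. The windows are chr14:18270967-18270996 (minus strand) for Rpl15, chr7:45718061-45718090 (plus) for Rpl18, chr7:109519185-109519214 (plus) for Rpl27a, chr2:39005112-39005141 (minus) for Rpl35, chr7:141447641-141447670 (plus) for Rplp2 and chr17:27635225-27635254 (minus) for Rps10.
Rpl15: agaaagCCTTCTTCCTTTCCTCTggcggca
Rpl18: ctcgcaggccgCTCTTTCCCCgcccactcc
Rpl27a: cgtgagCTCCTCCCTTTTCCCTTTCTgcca
Rpl35: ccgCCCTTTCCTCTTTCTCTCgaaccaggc
Rplp2: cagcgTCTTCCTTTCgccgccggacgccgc
Rps10: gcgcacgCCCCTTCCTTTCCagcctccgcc

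Promoters of 65 of the 89 members were in the RefSeq table. CTTTC on the gene's strand within 30 bases of the start, on either side, was found in 22 of these 65 (33.8%), and in 7.93% of the promoters of 9622 tested genes and 9.18% of all 27025 promoters. Among the 57 promoters of genes for subunit proteins proper, 21 held it (36.8%). The motif CGGAAG, the core bound by Ets factors such as Gabpa, was searched on both strands of the 300-base promoter, from 250 bases before to 50 after the start. It was found in 43 of 65 members (66.2%), in 34.3% of tested genes and in 18.8% of all promoters. TATAAA on the gene's strand just upstream of the start was found in 1 of 65 (1.54%), in 1.30% of tested genes and in 2.57% of all promoters, so it was about as rare among members as elsewhere. These matches describe the letters in the window and show neither binding nor the true start in striatum. The members lie on 19 chromosomes, so no single locus holds them. Within the bounds of 30 of them, on the same strand, lie 58 small nucleolar RNAs, guides of ribosomal RNA modification. The longest annotated coding sequence was taken for each member, which need not be that of its main protein. These sequences are short, from 138 to 1257 bases with a median of 454.5 over the 84 members with an annotated one.

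Together the 89 members summed to 8083, 9620 and 7564 FPKM in knock-in replicates 1 to 3, or 2.49%, 2.95% and 2.25% of the library. The sums were 8939, 8047 and 8040 FPKM in wild type replicates 1 to 3, or 2.76%, 2.56% and 2.53%. A few genes carried much of it: the 5 most abundant members took 23.6% to 24.7% of that sum in each library.

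The highest level in every library belonged to Rplp1, an acidic phosphoprotein of the ribosomal stalk that recruits translation factors. Rplp1 had 729, 903 and 663 FPKM in knock-in libraries and 772, 709 and 707 FPKM in wild-type libraries. Rps15, the small-subunit protein described above as a LRRK2 substrate, came next with 448, 522 and 399 FPKM in knock-in and 479, 426 and 414 FPKM in wild type. In both genes knock-in libraries held the highest and the lowest value, with the wild-type libraries between. Rps29, a small zinc-binding protein of the 40S head, had 303, 376 and 279 FPKM in knock-in and 336, 295 and 289 FPKM in wild type. Rpl8, which lies near the peptidyl transferase centre, had 253, 295 and 226 FPKM in knock-in and 275, 249 and 255 FPKM in wild type. Rps24, mutated in some patients with Diamond-Blackfan anaemia, had 236, 279 and 225 FPKM in knock-in and 272, 248 and 233 FPKM in wild type. All 5 thus shared 1 order of libraries at the ends, with knock-in replicate 2 highest and knock-in replicate 3 lowest.

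Levels differed widely within the family. Over the 77 genes for subunit proteins, mean FPKM ran from 14.2 for Rps15a to 747 for Rplp1, a 52.5-fold range, with Rps15 next at 448, and the upper quartile was 3.13 times the lower quartile. Near-identical copies had rows of their own. Ribosomal protein genes have many processed pseudogenes. GENCODE M21 held 554 genes outside the members that matched the longest annotated coding sequence of a member. The match was at 95% identity or more over at least 80% of its length. Of these genes 537 were annotated as pseudogenes. Copies of a shorter coding sequence of the same member can be missed. Of the 89 members 76 had at least 1 copy when copies that are members themselves are counted. Of the copies outside the members 459 had a row in the table.

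The copies carried 32.3% to 32.9% of the FPKM of members and copies together in each library. For 20 members the copies held more than 50% of that total. The large-subunit gene Rpl21 was the most extreme: its own row averaged 19.1 FPKM and the rows of 45 of its 57 copies summed to 219 FPKM, 92.0% of the total. The share was 81.1% for Rps12, 78.6% for Rpl29, 72.4% for Rpl15 and 72.3% for Rpl10. Rps3 had 0 such copies. With copies added to their parent, the range over the 77 genes narrowed to 34.2-fold and the quartile ratio to 2.11. How the authors' counting shared reads between a gene and its copies is not given in the sources used here, so levels of members with many copies are uncertain. Across these 77 genes the mean level had a Spearman correlation of -0.10 with the number of copies and 0.05 with coding length, as a description over genes that share libraries. GENCODE M21 gave 1 transcript for Rplp1, 2 for Rps15, 7 for Rps15a and 12 for Rps24. The part of the number of annotated transcripts in these levels was not tested. Rps15a, Rpl21 and Rps12 were named with their values in view.

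**Figure D1:**
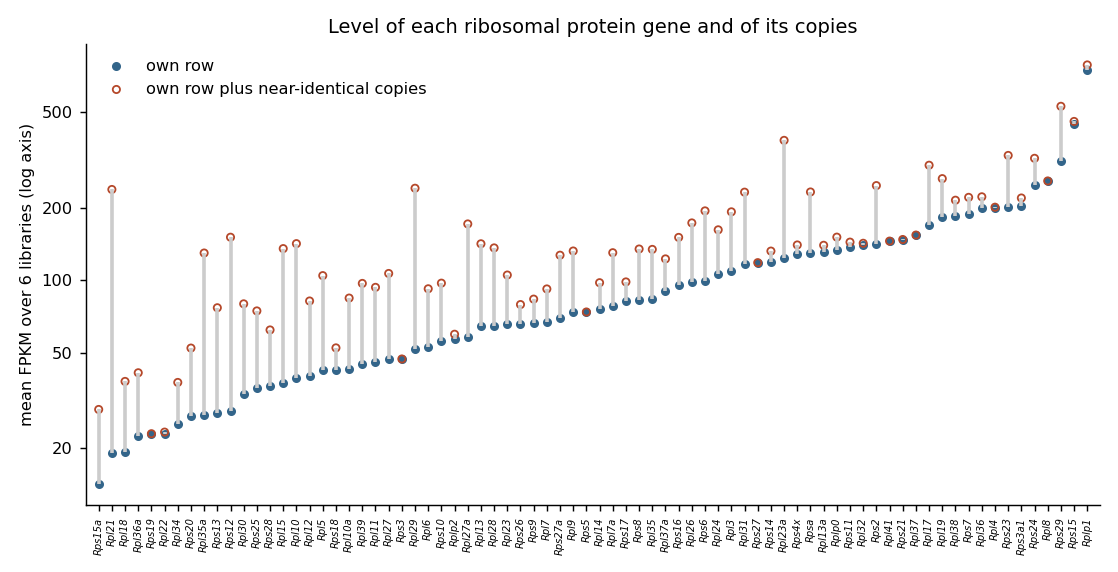
Mean FPKM over the 6 libraries (log axis) of genes for subunit proteins, each from its own row (filled points) and with the rows of near-identical copies added (open circles), in order of the level of its own row. Copies that are members themselves are not added. Rplp1 is highest at 747 FPKM, and the longest lines, such as that of Rpl21, mark genes whose copies hold most of the sum.

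Some copies are members themselves. The first 90 bases of the coding sequence are given for Rps27, a zinc finger protein of the small subunit, its retrocopy Rps27rt and its paralogue Rps27l, a gene induced by p53, because they differ to very unequal degrees. Capitals mark bases that differ from Rps27. Coordinates of the genes on GRCm38 (GENCODE M21) are chr3:90212522-90213651 (minus strand) for Rps27, chr9:114982366-114982739 (minus) for Rps27rt and chr9:66946086-66949516 (plus) for Rps27l.
Rps27: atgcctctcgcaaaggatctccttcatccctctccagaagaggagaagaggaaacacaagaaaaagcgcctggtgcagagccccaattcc
Rps27rt: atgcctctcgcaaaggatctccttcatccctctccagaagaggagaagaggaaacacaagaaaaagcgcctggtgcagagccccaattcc
Rps27l: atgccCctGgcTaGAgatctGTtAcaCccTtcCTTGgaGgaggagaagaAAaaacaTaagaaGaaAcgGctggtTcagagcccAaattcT

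Over the whole coding sequence of 252 bases Rps27rt had 0 differences from Rps27, and Rps27l had 60 (76.2% identity). For Rps27l a sequence of that length was used and not its longest annotated one, of 315 bases. The ratio of Rps27rt to Rps27 was 0.217, 0.202 and 0.216 in knock-in libraries and 0.203, 0.201 and 0.203 in wild-type libraries, a nearly fixed fraction. The ratio of Rps27l to Rps27 was 0.0986, 0.0941 and 0.0950 in knock-in and 0.0949, 0.0924 and 0.119 in wild type, with wild type replicate 3 standing above the others. Of the other retrocopies 4 also kept a narrow range, some of them named with their values in view. Rps3a2 stood at 0.146 to 0.154 of Rps3a1 in all libraries, Rps3a3 at 0.0677 to 0.0748 of Rps3a1, Rpl37rt at 0.110 to 0.123 of Rpl37 and Rpl6l at 0.202 to 0.233 of Rpl6. Rps4l ranged more widely, at 0.0860 to 0.111 of Rps4x. A messenger of the copy and reads shared with its parent cannot be told apart here.

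Another paralogue differs less. Rpl36al, which encodes a near relative of the large-subunit protein Rpl36a from an autosome, is shown beside its X-linked relative over the first 90 coding bases, with capitals for bases that differ from Rpl36a. The genes lie at chr12:69182731-69184083 (minus strand) and chrX:134585654-134588062 (plus strand) on GRCm38.
Rpl36a: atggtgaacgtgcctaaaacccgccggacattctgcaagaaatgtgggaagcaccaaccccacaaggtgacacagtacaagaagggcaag
Rpl36al: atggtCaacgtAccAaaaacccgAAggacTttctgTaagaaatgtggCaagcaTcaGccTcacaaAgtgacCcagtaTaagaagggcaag

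Rpl36al differed from Rpl36a at 39 of 318 coding bases (87.7% identity). Rpl36a had 21.4, 26.9 and 19.5 FPKM in knock-in libraries and 24.6, 21.3 and 21.0 FPKM in wild-type libraries. Rpl36al had 26.5, 32.7 and 23.6 FPKM in knock-in and 29.8, 25.5 and 25.7 FPKM in wild type. The autosomal gene was thus the higher of the pair in every library, at 1.20 to 1.24 times the X-linked one. Rpl7l1, related to Rpl7 and best known from ribosome assembly, had 14.2, 16.4 and 14.2 FPKM in knock-in and 15.3, 14.3 and 14.8 FPKM in wild type. Rpl3l, a paralogue of Rpl3 that replaces it in muscle, stayed below 1 FPKM in all libraries, with 0.542, 0.404 and 0.459 FPKM in knock-in and 0.329, 0.259 and 0.464 FPKM in wild type, and was the 1 member not tested. Rps4l, a retrocopy of the X-linked Rps4x, had 10.3, 16.0 and 12.7 FPKM in knock-in and 14.6, 12.2 and 11.7 FPKM in wild type.

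The clearest pattern in the family was a shift of nearly all members together from library to library, within each genotype. Relative to the wild-type mean on the log2(FPKM + 1) scale, the median of the 88 tested members was -0.05, 0.19 and -0.13 in knock-in replicates 1 to 3 and 0.10, -0.05 and -0.05 in wild type replicates 1 to 3. In knock-in replicate 2 this is a fold of 1.14, with 83 of 88 members above the wild-type mean, and in knock-in replicate 3 it is 0.915, with 7 of 88 above. In wild type replicate 1 the fold was 1.07 with 85 of 88 above. The members were much alike within a library, with an SD of 0.09 to 0.10 in each knock-in library and of 0.05 to 0.07 in each wild-type library. Wild-type libraries enter the mean that is subtracted, which narrows their SD. Over all genes tested the SD was 0.19 to 0.22 in knock-in and 0.13 in wild type. Ribosome biogenesis genes were about as alike as the members, with 0.08 to 0.10 in knock-in and 0.06 in wild type.

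Knock-in replicate 2 held the highest value of the 6 libraries for 74 of the 88 members, against 24.7% of all tested genes. Knock-in replicate 3 held the lowest for 61 of 88, against 32.0% of all tested genes. Knock-in replicate 2 and wild type replicate 1 were the top pair for 76 of 88 members (16.4% of all tested genes). The top pair thus held 1 library of each genotype. Fau and Rack1, outside the name rule, had the same pair on top. Fau, a fusion of a ubiquitin-like protein with S30, had 181, 212 and 163 FPKM in knock-in and 190, 171 and 169 FPKM in wild type. Rack1, the scaffold protein on the 40S head, had 28.5, 33.8 and 26.4 FPKM in knock-in and 30.8, 28.1 and 29.1 FPKM in wild type.

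**Figure D2:**
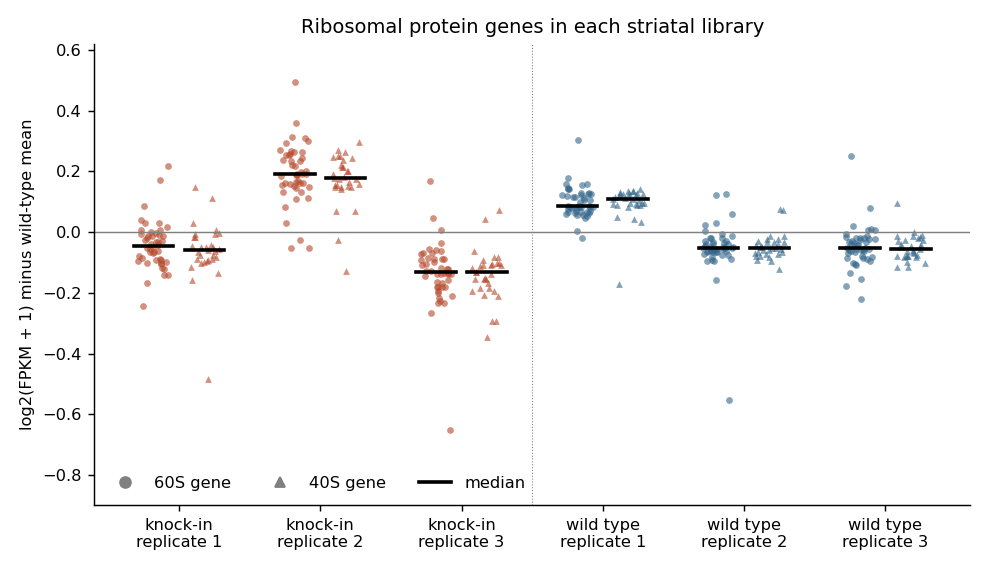
log2(FPKM + 1) minus the wild-type mean for each of the 46 60S genes (circles) and 31 40S genes (triangles) in each library, with black lines at the medians. Nearly all points of knock-in replicate 2 and wild type replicate 1 lie above 0 and nearly all of knock-in replicate 3 below it.

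A few members left the common order. Rps25, needed for initiation at some viral internal ribosome entry sites, ran opposite to the rest with 38.1, 32.1 and 37.0 FPKM in knock-in and 31.1, 37.1 and 37.7 FPKM in wild type. It was lowest in exactly the libraries where the family was highest, and was named with its values in view. The ratio of the highest to the lowest library exceeded 1.5 for 5 members, and for 2548 of the 14156 tested genes. Its median over the tested members was 1.28. In Rpl29 and Rps20 a single library stood apart. Rpl29, a large-subunit protein also known to bind heparin, had 52.9, 64.4 and 51.2 FPKM in knock-in and 56.3, 30.6 and 54.2 FPKM in wild type, with wild type replicate 2 far below the others. Rps20, which sits in the 40S head, had 19.8, 32.8 and 26.1 FPKM in knock-in and 30.6, 27.1 and 26.7 FPKM in wild type, with knock-in replicate 1 low. Rps4l and Rpl3l, whose values are given above, also exceeded it.

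The subunits kept their balance while the total moved. Large-subunit genes summed to 4518, 5396 and 4212 FPKM in knock-in and to 4970, 4498 and 4503 FPKM in wild type. Small-subunit genes summed to 3374, 3999 and 3165 FPKM in knock-in and to 3758, 3361 and 3344 FPKM in wild type. The ratio of the small to the large sum was 0.747, 0.741 and 0.751 in knock-in and 0.756, 0.747 and 0.742 in wild type. Its means of 0.746 ± 0.00504 in knock-in and 0.749 ± 0.00688 in wild type (SD, n = 3 each) differed by less than either SD. With 3 libraries against 3 an exact permutation test cannot give a two-sided p below 0.1, so none is given.

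**Figure D3:**
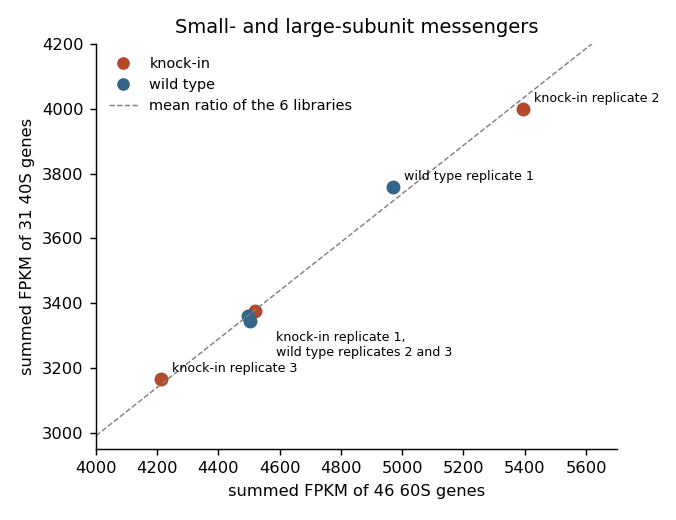
Summed FPKM of the 31 40S genes against that of the 46 60S genes in each library, with the mean ratio of the 6 libraries as a dashed line. The libraries spread along the line, from knock-in replicate 3 at 4212 and 3165 FPKM to knock-in replicate 2 at 5396 and 3999 FPKM, and lie close to it.

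The comparison of genotypes asked whether messengers of the ribosome differed in knock-in striatum. In limma on log2(FPKM + 1), fitted over the 14156 genes that averaged 1 FPKM or more, 0 of 88 members were called at a Benjamini-Hochberg adjusted p under 0.05, against 0.0212% of all genes (3 genes). At an unadjusted p under 0.05 there were also 0 of 88 members, against 4.27% of all genes. Adjusted p-values of the members ran from 0.997 to 1.00. The members' log2 differences, knock-in minus wild type, centred on 0.00 (median), where the median of all genes was -0.01. Their quartiles were -0.03 and 0.03, and 48 of 88 were above 0, against 43.6% of all genes. The share of members above 0 was 40 of 77 for the subunit proteins proper. The median SE of a member was 0.10 on the log2 scale. For 72 of 88 members the 95% confidence interval of the fold lay within 0.8 to 1.25, and for 86 within 1.5-fold in either direction.

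The centre near 0 rested on libraries of opposite shift within the knock-in group. Without knock-in replicate 2 the median was -0.09 and 7 of 88 members were above 0; without knock-in replicate 3 it was 0.06 with 79 above. Without wild type replicate 1, 75 were above 0, and without wild type replicates 2 or 3, 29 and 24 were. The called count stayed at 0 of 88 in each of these fits. With libraries scaled to the same sum, 17 of 89 were above 0 and the median was -0.04, while the median of all genes was -0.06. The values are larger on that scale, so the same minimum let 17693 genes through, Rpl3l among them, and the scaling and the genes tested changed together. In whole tissue, fewer cells of a type and less RNA per cell cannot be told apart.

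Groups overlapped in nearly all members. Of 88 members 1 had all 3 knock-in libraries below all 3 wild-type libraries, against 6.58% of all genes, and 0 had them above, against 2.92%, together 1 of 88 against 9.51%. That member was Rpl23, a large-subunit protein that can also bind the p53 regulator Mdm2. Rpl23 had 63.1, 65.4 and 63.2 FPKM in knock-in and 71.1, 66.1 and 66.1 FPKM in wild type. The highest knock-in and lowest wild-type library lay close together, and the means were 63.9 ± 1.29 FPKM in knock-in and 67.8 ± 2.89 FPKM in wild type. The log2 difference was -0.08 ± 0.06 (SE) with a fold between 0.857 and 1.04 (limma adjusted p = 0.997), and -0.05 without wild type replicate 1.

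By role, the genes of the stalk followed the family's order of libraries. Rplp0, its base, had 124, 152 and 114 FPKM in knock-in and 144, 133 and 135 FPKM in wild type, so the knock-in values spanned the wild-type ones. Rplp2, the partner of Rplp1, had 53.1, 66.1 and 49.1 FPKM in knock-in and 60.5, 56.5 and 56.2 FPKM in wild type, again with the extremes in knock-in. The log2 differences of Rplp0, Rplp1 and Rplp2 were -0.09 ± 0.11, 0.06 ± 0.12 and -0.05 ± 0.11 (SE). Per length Rplp1 lay far above Rplp2, its partner, in every library. Rplp1 has 1 annotated transcript and Rplp2 has 6, and the part of this in the gap was not tested.

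Rpl5 and Rpl11 carry 5S ribosomal RNA into the large subunit and, when free, bind Mdm2. Rpl5 had 39.6, 47.1 and 40.4 FPKM in knock-in and 44.2, 40.8 and 41.8 FPKM in wild type. Rpl11 had 45.4, 52.9 and 39.5 FPKM in knock-in and 48.8, 44.8 and 44.1 FPKM in wild type. Groups overlapped in both, and the means nearly coincided. Rpl5 averaged 42.4 ± 4.10 FPKM in knock-in and 42.3 ± 1.74 FPKM in wild type, and Rpl11 45.9 ± 6.71 FPKM in knock-in and 45.9 ± 2.52 FPKM in wild type.

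Of the core of the large subunit, Rpl3 reaches towards the peptidyl transferase centre and had 102, 119.7 and 104 FPKM in knock-in and 115, 104 and 108 FPKM in wild type. Rpl10, a late-joining protein near the catalytic site, had 39.8, 41.0 and 38.9 FPKM in knock-in and 42.4, 38.7 and 35.2 FPKM in wild type. Rpl10 varied little between knock-in libraries (39.9 ± 1.06 FPKM) and more between wild-type libraries (38.8 ± 3.62 FPKM). Rpl7 had 68.3, 72.3 and 59.5 FPKM in knock-in and 69.5, 73.1 and 59.0 FPKM in wild type, with overlapping groups. Rpl39, at the exit of the peptide tunnel and X-linked, had 45.9, 53.9 and 39.3 FPKM in knock-in and 43.3, 40.7 and 45.7 FPKM in wild type. Its log2 difference of 0.09 ± 0.11 (SE) was smaller than its error.

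In the small subunit, Rps6 is the classical substrate of the S6 kinases downstream of mTORC1 and had 94.1, 110.5 and 92.3 FPKM in knock-in and 106, 94.4 and 97.4 FPKM in wild type. It averaged 98.9 ± 10.02 FPKM in knock-in and 99.3 ± 6.08 FPKM in wild type (log2 difference -0.01 ± 0.09, SE). Rps15 averaged 456 ± 62.2 FPKM in knock-in and 439.7 ± 34.2 FPKM in wild type (log2 difference 0.05 ± 0.11, SE). The messenger values say nothing of phosphorylation of either protein. Rps27 had 108, 132 and 110.0 FPKM in knock-in and 131, 114 and 113 FPKM in wild type. Rps4x had 120.1, 145 and 121 FPKM in knock-in and 140.5, 120.2 and 125 FPKM in wild type. Both followed the family's order of libraries at the top, with knock-in replicate 2 and wild type replicate 1 highest. Rps3, a protein of the mRNA entry channel with a second role in DNA repair, had 47.3, 48.4 and 38.6 FPKM in knock-in and 53.7, 47.2 and 47.0 FPKM in wild type. Its log2 difference of -0.14 ± 0.10 (SE) was -0.04 without knock-in replicate 3 and -0.08 without wild type replicate 1.

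The members with the smallest p in each direction did not pass. Rpl22l1 led those higher in knock-in. It is the paralogue of the RNA-binding large-subunit protein Rpl22, which represses it in mice. Rpl22l1 had 13.4, 15.6 and 14.2 FPKM in knock-in and 12.5, 11.6 and 13.8 FPKM in wild type, with groups that overlapped by 1 library. The means were 14.4 ± 1.12 FPKM in knock-in and 12.6 ± 1.14 FPKM in wild type, and the log2 difference of 0.17 ± 0.08 (SE) gave a fold between 0.985 and 1.29 (limma adjusted p = 0.997). It was 0.12 without wild type replicate 2. Rpl22 itself had 22.7, 25.5 and 21.6 FPKM in knock-in and 23.5, 21.8 and 22.8 FPKM in wild type. The ratio of Rpl22l1 to Rpl22 within a library was 0.590, 0.610 and 0.655 in knock-in and 0.534, 0.530 and 0.606 in wild type. It averaged 0.619 ± 0.0333 in knock-in and 0.557 ± 0.0432 in wild type, with overlapping groups.

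Rpl27, a large-subunit protein, had 49.3, 56.3 and 45.1 FPKM in knock-in and 43.0, 47.5 and 40.6 FPKM in wild type. Its log2 difference was 0.19 ± 0.10 (SE), with a fold between 0.978 and 1.34 and limma adjusted p = 0.997. It was 0.11 without knock-in replicate 2 and also 0.11 with the rows of its copies added. Wild type replicate 1, high for most of the family, was not high for Rpl27. Rps19bp1, the non-ribosomal gene of the set, had 20.4, 21.2 and 18.6 FPKM in knock-in and 19.5, 18.6 and 17.3 FPKM in wild type, a log2 difference of 0.11 ± 0.07 (SE) that was 0.07 without knock-in replicate 2 or without wild type replicate 3. Rpl9, of the large subunit, had 72.9, 84.8 and 69.7 FPKM in knock-in and 74.4, 69.5 and 70.4 FPKM in wild type. Knock-in replicate 2 stood apart: the log2 difference was 0.08 ± 0.08 (SE) with all libraries, -0.0028 without that one and 0.14 without knock-in replicate 3. For Rpl29 the log2 difference of 0.29 ± 0.24 (SE) depended on single libraries: leaving out wild type replicate 2 gave 0.02, knock-in replicate 2 gave 0.19 and wild type replicate 1 gave 0.45. It was 0.07 with its copies added, and its fold interval of 0.812 to 1.85 was the widest of all members.

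Among those lower in knock-in, Rpl15 had 33.3, 38.1 and 33.8 FPKM in knock-in and 44.3, 41.3 and 33.8 FPKM in wild type. This large-subunit protein carries the long pyrimidine run printed above. Its log2 difference was -0.17 ± 0.11 (SE), with a fold between 0.747 and 1.06 (limma adjusted p = 0.997), and 1 wild-type library stood at the knock-in level. It was -0.09 without wild type replicate 1, -0.28 without wild type replicate 3 and -0.06 with the rows of its copies added. Rpl24, the gene changed in the Belly spot and tail mouse, had 97.7, 108 and 103 FPKM in knock-in and 114, 104 and 111 FPKM in wild type. Its log2 difference of -0.09 ± 0.07 (SE) turned to 0.040 once the rows of its 4 near-identical copies were added, and was -0.06 without knock-in replicate 1. Rpl18 had 18.8, 20.4 and 16.8 FPKM in knock-in and 21.5, 19.2 and 19.2 FPKM in wild type, a log2 difference of -0.10 ± 0.08 (SE). Leaving out knock-in replicate 2 gave -0.16, knock-in replicate 3 gave -0.03 and wild type replicate 1 gave -0.04.

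**Figure D4:**
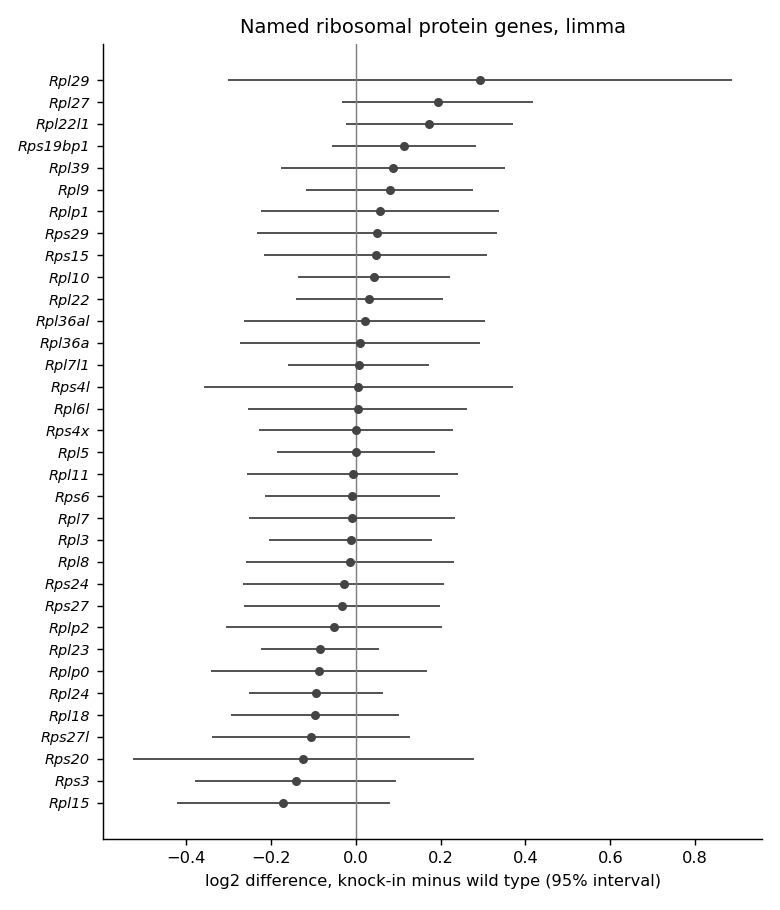
log2 difference, knock-in minus wild type, with its 95% confidence interval from limma, for ribosomal protein genes named in the text. All intervals shown include 0, from Rpl29 at 0.29 to Rpl15 at -0.17.

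Among genes that work with the ribosome, 0 were called in limma in each list that follows. Of 19 translation factors and other genes with TOP messengers 7 were higher in knock-in and 12 lower. Eif3e, a subunit of initiation factor 3, stood at 40.4 ± 2.17 FPKM in knock-in and 36.7 ± 1.57 FPKM in wild type, and Pabpc1, the poly(A)-binding protein, at 27.8 ± 1.87 FPKM in knock-in and 30.6 ± 1.78 FPKM in wild type. Of 41 ribosome biogenesis genes tested 16 were higher and 25 lower. Gar1, of the pseudouridylation complex, stood at 5.47 ± 0.478 FPKM in knock-in and 4.74 ± 0.272 FPKM in wild type. Sbds, which helps release Eif6 from new large subunits, stood at 24.6 ± 0.521 FPKM in knock-in and 27.4 ± 2.34 FPKM in wild type. Chaperones of ribosomal proteins were higher in 6 of 9, and host genes of small nucleolar RNAs likewise in 6 of 9. Of 18 regulators of TOP messengers and mTORC1 tested 6 were higher and 12 lower. Mycn, a transcription factor that drives ribosome production, had the smallest p of them, at 2.69 ± 0.246 FPKM in knock-in and 3.33 ± 0.102 FPKM in wild type (limma adjusted p = 0.997). Rheb, the activator of mTORC1, stood at 8.14 ± 0.612 FPKM in knock-in and 7.52 ± 0.0973 FPKM in wild type. Rps6kb2, an S6 kinase, stood at 13.8 ± 0.899 FPKM in knock-in and 14.8 ± 0.435 FPKM in wild type.

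Other families shifted by library in the order of the ribosomal proteins. The median of 74 nuclear genes of oxidative phosphorylation was -0.02, 0.18 and -0.09 in knock-in replicates 1 to 3 and 0.07, -0.05 and -0.03 in wild type replicates 1 to 3. That of 78 mitochondrial ribosomal protein genes was 0.00, 0.12 and -0.04 in knock-in and 0.05, -0.03 and -0.02 in wild type. The translation factors with TOP messengers followed with 0.09 in knock-in replicate 2 and -0.10 in knock-in replicate 3. Ribosome biogenesis genes did not, with medians between -0.05 and 0.02 in all libraries. Genes with transcripts under 1000 bases (1538, with members and copies removed) had medians of -0.02, 0.08 and -0.05 in knock-in and 0.05, -0.03 and -0.02 in wild type. Genes of 4000 bases and over (4811) had -0.02, -0.05 and -0.01 in knock-in and -0.03, 0.01 and 0.02 in wild type. Genes of 1000 to 2000 bases (2253) had -0.01, 0.07 and -0.06 in knock-in and 0.04, -0.03 and -0.02 in wild type. Those of 2000 to 4000 bases (5117) had -0.02, 0.02 and -0.05 in knock-in and 0.01, -0.01 and 0.00 in wild type. The classes under 4000 bases thus had knock-in replicate 2 highest and knock-in replicate 3 lowest, like the ribosomal protein genes but at a smaller size. The class of 4000 bases and over did not share that order.

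Markers of other cells and the mitochondrial share moved between libraries too. Mitochondrially encoded genes took 20.5%, 17.99% and 23.2% of the FPKM in knock-in replicates 1 to 3 and 18.6%, 18.7% and 19.4% in wild type replicates 1 to 3. The share was lowest in the library where ribosomal protein genes were highest and highest where they were lowest. Cortical excitatory markers (10 of 12 tested, 0 at a level of 0) summed to 118, 100.1 and 61.7 FPKM in knock-in and to 79.2, 59.5 and 59.4 FPKM in wild type. They were high in knock-in replicate 1 as well, where the ribosomal protein genes were not. Blood markers (5 of 5 tested, 0 at a level of 0) summed to 1312, 1479 and 761 FPKM in knock-in and to 1445, 1433 and 1136 FPKM in wild type, lowest in knock-in replicate 3. Markers of myelinating oligodendrocytes (10 of 10 tested, 0 at a level of 0) summed to 3449.6, 3644 and 2943 FPKM in knock-in and to 4035, 4128 and 3620.0 FPKM in wild type, and those of their precursors (7 of 7 tested) to 57.5, 66.1 and 49.3 FPKM in knock-in and to 70.4, 71.0 and 69.4 FPKM in wild type. All 17 of these genes were lower in knock-in, 7 of them at an unadjusted p under 0.05 and 0 called, and both lists were lowest in knock-in replicate 3. Ependymal markers (6 of 6 tested) were lower in knock-in as well, 4 at an unadjusted p under 0.05 and 0 called, with medians of -0.57, -0.15 and -0.48 in knock-in and 0.06, -0.12 and 0.04 in wild type. Markers of astrocytes, microglia and endothelium had medians of -0.13, -0.16 and -0.14 in knock-in replicate 3, where those of striatal projection neurons were at 0.14. The microglial markers did not move together, and 2 of 8 were above the wild-type mean in that library. Cx3cr1 had 8.11 FPKM there and 3.47 to 3.58 FPKM in wild type. P2ry12 had 13.7 FPKM there and 6.79 to 8.24 FPKM in wild type. The part of each marker list and of the mitochondrial share in the shift of the ribosomal protein genes was not tested. With the cortical markers' level as a covariate the members' median log2 difference was -0.08, 7 of 88 were above 0, 5 had an unadjusted p under 0.05 and 0 were called in limma.

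**Figure D5:**
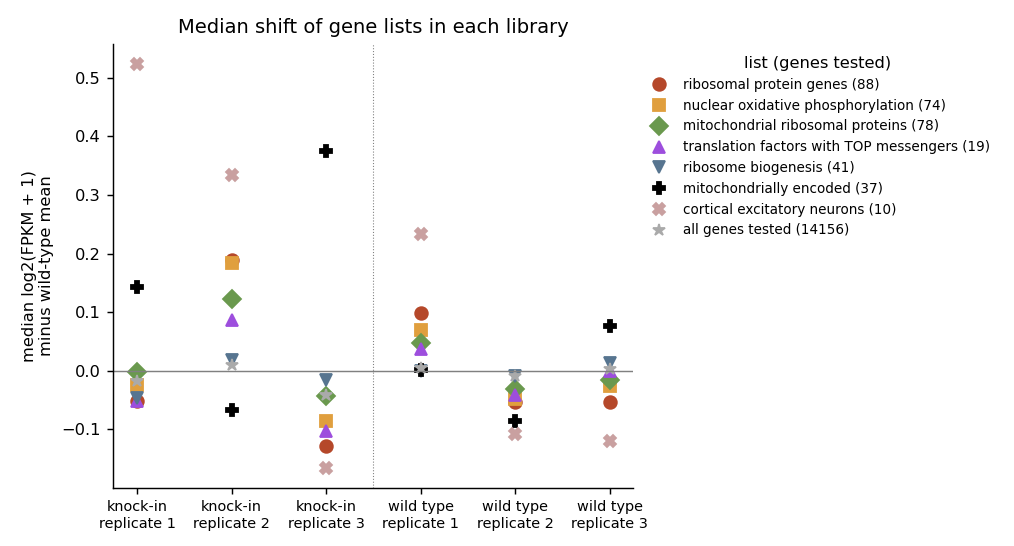
Median log2(FPKM + 1) minus the wild-type mean in each library for the ribosomal protein genes and 6 other lists, with all tested genes for comparison. Ribosomal protein and nuclear oxidative phosphorylation genes lie nearly together at 0.19 and 0.18 in knock-in replicate 2, while mitochondrially encoded genes are highest in knock-in replicate 3.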

How the data were processed

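Bulk RNA-seq of dorsal striatum was deposited as a single table of FPKM values, per the file headers, for 3 knock-in and 3 wild-type samples. The submitters' processing notes list FastQC, HISAT2, SAMtools and StringTie, without versions or roles. For genome build, annotation and strand setting, the entry is: not given in the sources used here. Columns were assigned to samples by the codes in the labels, and the table held 0 values at 0.

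Values were used as log2(FPKM + 1), which understates changes of low genes. The 14156 genes that averaged 1 FPKM or more were tested with limma (3.58.1, under R 4.3.3) using a trended prior and robust estimation, two-sided, with Benjamini-Hochberg adjustment over all of them and a threshold of 0.05. All p-values, SEs and 95% intervals of genes are from that model. Fold intervals are on the log2(FPKM + 1) scale. Positions, coding sequences and copies are from GENCODE M21, to which 22972 identifiers matched, and copies were found with BLAST 2.17.0. That annotation may differ from the authors'.

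Named genes were the 5 members of highest and of lowest mean, the 5 of smallest p in each direction, the 5 of largest ratio between libraries, members of known role, and up to 3 genes of smallest p in other lists. Drd1, Ppp1r1b, Lrrk2, the Y-linked genes and the genes so marked in the text fall outside that rule. Some genes that the rule takes are not reported here. The members, lists and tests were chosen with earlier results of these data known. The alternatives were other pseudocounts, filters, scalings and prior variances, a replicate block, a cortical covariate, leaving out each library, and, added after seeing the data, summing copies into their parent.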

Additional observations from a re-analysis of the deposited data

How the results depend on the processing

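In limma 0 ribosomal protein genes were called with all libraries and under all 17 alternatives, and between 0 and 5 had an unadjusted p under 0.05. The 5 were under the cortical covariate and included Rps3 and Rpl18. Over all genes 3 were called, 2 to 4 under other filters, pseudocounts, scalings and priors, and 3 to 15 with a library left out: leaving out knock-in replicate 1 gave 11, knock-in replicate 2 gave 15, knock-in replicate 3 gave 6 and wild type replicate 2 gave 8. The median log2 difference of the members ran from -0.09 to 0.06 as libraries were left out. The summed level, knock-in over wild type, was 1.01, and 0.937 to 1.06 as libraries were left out. The 40S to 60S ratio, knock-in over wild type, was 0.997, 0.993 to 1.00 as libraries were left out, and 1.01 under quantile normalization. The cause was not tested. The log2 difference of Rpl24 reversed to 0.040 with near-identical copies summed into the member, and that of Rpl9 ran from -0.0028 to 0.14 as libraries were left out. Members above 0 numbered 64 with median-of-ratios scaling, 42 with quantile normalization and 35 of 89 when scaled without mitochondrially encoded genes, where 18289 genes passed the filter.

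Deviations over genes of knock-in and wild-type samples with the same number had correlations of -0.01, -0.07 and 0.19. Those of samples with unlike numbers ran from -0.18 to 0.21, a range that holds all of these, so the numbers were not taken as pairs. With the replicate block 2 genes and 0 members were called, and the members' median stayed at 0.00. FPKM gives no read depth, so the precision of a value rests on the spread between 3 libraries a group, and members with many copies depend on how reads were shared between near-identical rows.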
